A study of Drosophila melanogaster with 54 samples.

Results

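Activation of the Dpp pathway and activation of the Wg pathway in the same embryonic tissue of Drosophila melanogaster were compared directly. The arrays were those titled Tkv gain of function and Arm gain of function in the second of 3 numbered array sets, 3 arrays each and 6 of the 54 arrays of the series. In the Tkv group a UAS-Tkv QD transgene made constitutively active Thickveins, a type I receptor for Dpp, and in the Arm group a UAS-Arm s10 transgene made constitutively active Armadillo, the fly β-catenin. Further arrays of the same set, also 3 per group, carried UAS-Arm s10 together with UAS-Ras1 Act (Arm+Ras), UAS-Ras1 Act alone (Ras), a wg mutation (wg loss), or no activated transgene (wild type, sorted as GFP positive or GFP negative cells). Each of these groups, the wild type included, carried Twi-GAL4 and UAS-GFP, so GFP and the transgenes were made in Twist-expressing cells. The last group of the set, 3 arrays titled Pnt gain of function, entered the main fit only through its estimate of the spread. Embryos were aged for 5.5 to 7.5 h at 25 °C, dissociated, and sorted for GFP, and total RNA was hybridised to Affymetrix DrosGenome1 arrays.

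Dpp, a BMP-type ligand, binds type I and type II receptor serine/threonine kinases, which phosphorylate the Smad protein Mad. Mad then enters the nucleus with Medea and binds target genes. In the early mesoderm, Dpp from the overlying dorsal ectoderm sustains dorsal mesodermal fates, from which visceral muscle and heart form. Wg, a Wnt ligand, stops the destruction of Armadillo, which then acts with the TCF protein on target genes, and it is known in mesoderm for its part in heart and somatic muscle founder specification. The s10 form lacks the region through which Armadillo is marked for destruction.

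Values are the authors' deposited expression summaries on a log2 scale, and a difference of 1 on this scale is a 2-fold change. A probe set was called when its adjusted p (limma, two-sided, Benjamini-Hochberg over all 13966 probe sets tested) was under 0.05. In Tkv minus Arm, 2792 of the 13966 probe sets were called, 20% of them, with 1560 higher in Tkv (11.2%) and 1232 lower (8.82%). Counts of called members of the gene lists and families below are to be read beside these shares. The 3 Tkv arrays did not overlap the 3 Arm arrays at 37% of probe sets. Against the wild type GFP positive arrays, 8.38% were called in Tkv (4.43% higher, 3.95% lower) and 6.92% in Arm (2.55% higher, 4.37% lower), and these comparisons share the same 3 wild type arrays. No label says that the 3 arrays of a group came from separate embryo collections, so the p-values measure the spread between these arrays only. In sorted cells, a change in the share of a cell type and a change in RNA per cell cannot be told apart.

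The 2 groups also differed in array quality. The actin control's 3′ minus 5′ signal, which grows as RNA or its labelled copy is cut short, was 0.53 to 0.68 in the Tkv arrays, 1.14 to 1.22 in the Arm arrays and 0.88 to 1.00 in the wild type arrays, with no overlap. For the GAPDH control it was -0.72 to -0.47 in Tkv and -0.11 to 1.87 in Arm. For the eIF-4a control it was 1.806 to 1.81 in Tkv and 1.845 to 2.315 in Arm. Replicate arrays correlated at 0.933 to 0.942 within Tkv and 0.898 to 0.917 within Arm, across probe sets. The difference between the groups went with gene length, measured as the genomic span of the gene. With probe sets in 5 equal bins of gene length, 1.25% of the bin of shortest genes were called higher in Tkv and 20.1% lower, while in bin 4 (3839 to 11010 bases) 21.1% were higher and 3.27% lower. Within bins of gene length, every array was then shifted by its median deviation from the probe set means. Of the 102 genes of the lists and of the largest changes described here that were called, 85 kept their call after this shift. With the eIF-4a signal as a covariate 82 kept it, with the GAPDH signal 65, and with the actin signal 3. Each of these control signals separates the groups completely, so genotype and control signal cannot be told apart in these 6 arrays. The part of RNA quality in the results was not tested beyond these values.

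**Figure D1:**
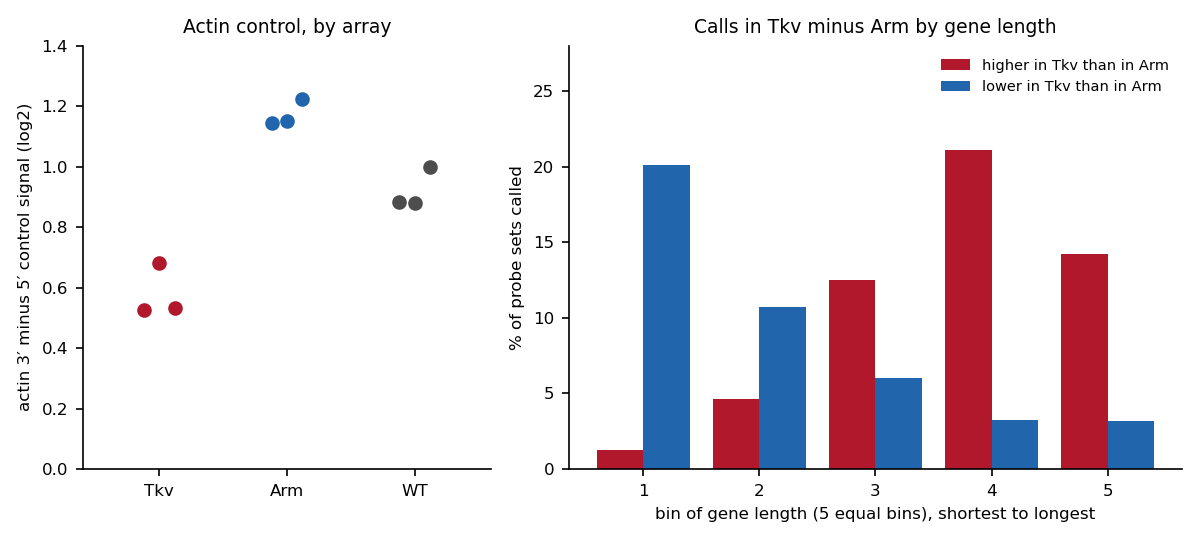
Left, the actin control's 3′ minus 5′ signal (log2) of each array in the Tkv, Arm and wild type (WT) groups. Right, the percentage of probe sets called higher (red) or lower (blue) in Tkv than in Arm within each of 5 equal bins of gene length, shortest to longest; lower calls take 20.1% of bin 1 and higher calls 21.1% of bin 4.

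The receptor gene itself separated the groups. For tkv the log2 level was 10.45, 10.51 and 10.56 in the Tkv arrays, 5.54, 6.30 and 5.84 in the Arm arrays, and 6.42, 6.39 and 6.57 in the wild type arrays. Tkv minus Arm was 4.62 ± 0.17 (SE, n = 3 each), a 24.5-fold difference (adjusted p = 6.18e-13), and it was 4.23 with the actin covariate. A second tkv probe set was higher by 1.91 (adjusted p = 0.0444). The array does not separate transgene RNA from the gene's own RNA. The arm and wg genes were not analysed here, so the Arm label has no check of this kind.

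Of 24 listed genes of the Dpp pathway, 19 were measured. In Tkv minus Arm, 8 were called higher, none lower, and the list's median difference was 0.65, beside -0.036 over all probe sets. The same 8 to 0 count came from the length-shifted values. The GAPDH covariate left 3 higher and none lower, and the actin covariate left tkv alone. Dad, the inhibitory Smad that Dpp signalling itself turns on, had 7.17, 7.01 and 7.0 in Tkv, 4.78, 4.77 and 4.96 in Arm, and 4.83, 4.46 and 4.77 in wild type. All 3 Tkv arrays thus stood more than 2 log2 units above every Arm array, while Arm and wild type overlapped. The difference was 2.22 ± 0.27 (SE; adjusted p = 3.27e-06). The zinc finger gene shn, whose product works with Mad and Medea in repression of target genes, had 6.28, 5.90 and 6.30 in Tkv, 5.14, 4.17 and 5.15 in Arm, and 4.97, 4.75 and 4.59 in wild type. It was higher in Tkv by 1.34 ± 0.30 (SE; adjusted p = 0.00228). Both Dad (2.37) and shn (1.39) were called in Tkv minus wild type, and neither was called in Arm minus wild type (0.15 and 0.05).

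The other called pathway members were receptors, a Smad and a glypican, and in these the departure from wild type lay on the Arm side or was called on neither. The type II receptor gene put was higher in Tkv than in Arm by 1.21 ± 0.26 (SE; adjusted p = 0.00151), with 0.24 in Tkv minus wild type (adjusted p = 0.765) and -0.97 in Arm minus wild type (adjusted p = 0.0224). Smox, the Smad of the Activin branch, had 5.13, 5.02 and 5.0 in Tkv, 1.17, 0.99 and 0.45 in Arm, and 4.16, 2.45 and 3.63 in wild type. Its difference of 4.18 ± 0.60 (SE; adjusted p = 2.54e-05) was the third largest rise of any named gene, and Arm minus wild type was -2.54 (adjusted p = 0.0105). The type I receptor genes sax and babo, the second of the Activin branch, were higher by 0.93 and 2.73, with adjusted p-values of 0.00232 and 0.00988, and neither was called against wild type in either group. The glypican gene dlp was higher by 2.18 (adjusted p = 0.00301), and by 1.23 without Arm array B (adjusted p = 0.00514). At its second probe set dlp missed the threshold (0.98, adjusted p = 0.345). With the GAPDH signal as covariate, 5 genes missed it: dlp (0.92, adjusted p = 0.325), put (0.92, 0.0869), sax (0.72, 0.0997), babo (2.16, 0.186) and shn (0.72, 0.212).

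The remaining 11 measured members did not pass the test. Among the ligands, dpp differed by 0.70 (adjusted p = 0.678) and gbb by -0.16 (0.538). Of the Smads that carry the Dpp signal, Mad differed by 0.65 (adjusted p = 0.0994), with no overlap of the groups, and Med by 0.33 (0.231). The receptor gene wit differed by -0.02. The extracellular regulators tsg, cv, cv-2, tld, tok and magu had differences between -0.84 (magu) and 0.59 (tok). Against wild type, Tkv was higher for tok by 2.37 (adjusted p = 0.0112) and lower for magu (-2.53, adjusted p = 0.00203), and Arm was lower for magu as well (-1.69, adjusted p = 0.0432).

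Of 19 measured genes known to respond to Dpp (22 listed), 8 were called higher in Tkv than in Arm, 1 lower, and 10 did not pass, with a median of 0.27, and the length-shifted values gave 6 and 1. Doc1, a T-box gene of the dorsal mesoderm and amnioserosa, had 9.15, 9.15 and 9.14 in Tkv, 7.19, 7.62 and 7.34 in Arm, and 7.34, 7.69 and 7.80 in wild type. The Tkv arrays were nearly identical and lay well above both other groups, and Tkv minus Arm was 1.76 ± 0.15 (SE; 3.4-fold, adjusted p = 4.32e-08). Its neighbour and paralogue Doc3 had 7.33, 7.42 and 7.40 in Tkv, 5.52, 3.19 and 3.92 in Arm, and 5.15, 5.85 and 5.05 in wild type, a Tkv minus Arm difference of 3.17 ± 0.51 (SE; adjusted p = 0.000103). Doc2, the third gene of the cluster, was higher by 0.93 without passing the test (adjusted p = 0.0611), although its groups did not overlap; without Arm array C it passed (1.14, adjusted p = 0.0448).

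The GATA factor gene pnr and its cofactor gene ush were also higher with activated Tkv. For pnr the levels were 6.41, 6.58 and 6.49 in Tkv, 5.41, 5.27 and 5.17 in Arm, and 5.78, 5.28 and 4.78 in wild type, and Tkv minus Arm was 1.21 ± 0.28 (SE; adjusted p = 0.0029). For ush they were 6.96, 6.56 and 6.76 in Tkv, 5.66, 4.84 and 5.21 in Arm, and 5.05, 4.78 and 4.79 in wild type, and the difference was 1.52 ± 0.25 (SE; adjusted p = 0.000142). Arm and wild type overlapped for both genes. All of Dad, Doc1, Doc3, pnr, ush and bap were called higher in Tkv minus wild type, at 2.37, 1.53, 2.03, 1.21, 1.89 and 1.48, and not one was called in Arm minus wild type, where they lay between -1.14 (Doc3) and 0.36 (ush).

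**Figure D2:**
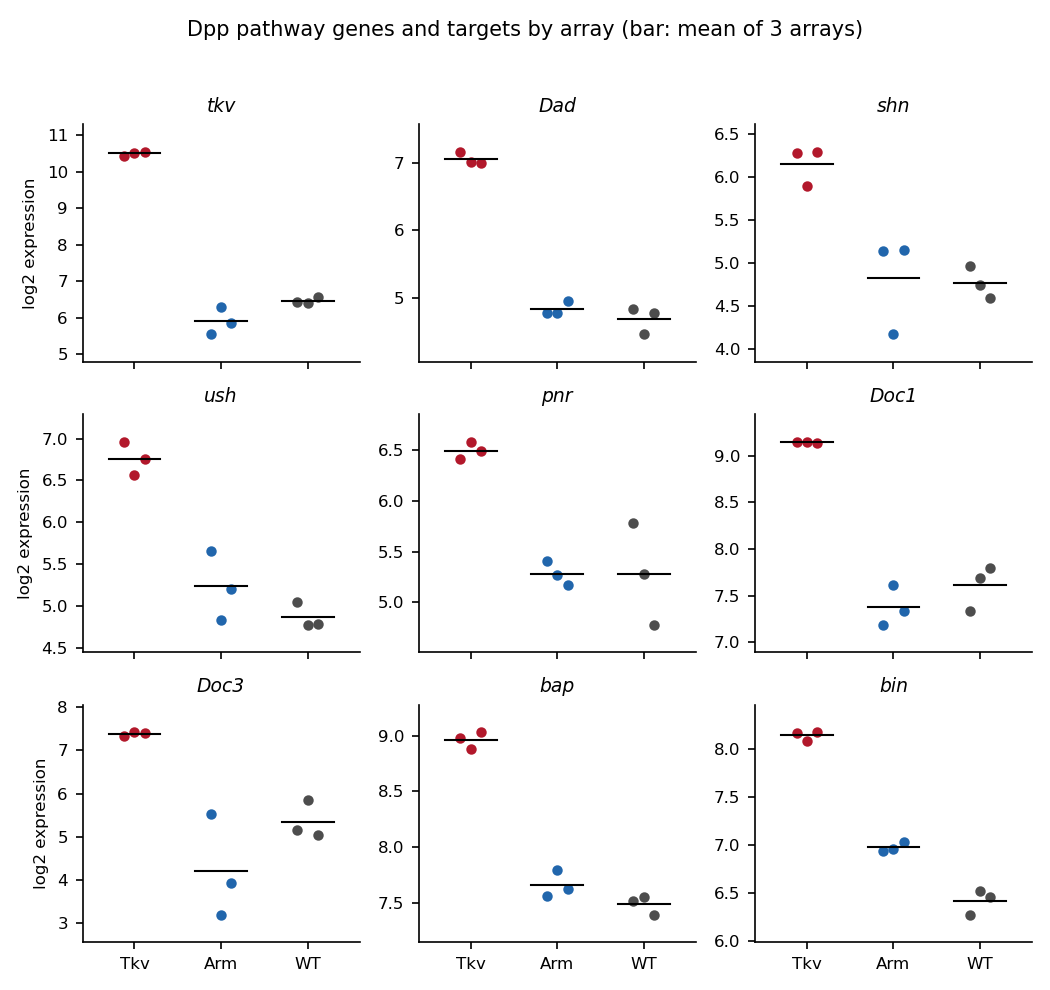
Log2 expression of 9 Dpp pathway genes and targets in each of the 3 arrays of the Tkv, Arm and wild type (WT) groups, each panel on its own scale, with bars at the group means. In every panel all Tkv points lie above all Arm and WT points; for tkv the Tkv points sit between 10.45 and 10.56.

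Further called members of the Dpp target list were weaker. The zinc finger gene salm, a Dpp target of the wing, was higher by 2.00 at low levels (4.10 ± 0.31 in Tkv and 2.10 ± 0.12 in Arm, SD, n = 3 each), a call lost without Tkv array C (1.81, adjusted p = 0.0794) or Arm array B (1.93, adjusted p = 0.0596). Ance, a peptidase gene of the dorsal ectoderm, was higher by 0.27 (adjusted p = 0.0356), and leaving out Tkv array A or C, or Arm array B or C, ended that call, at 0.22 to 0.26. Both groups lay below wild type for Ance, Tkv by -0.31 (adjusted p = 0.0371) and Arm by -0.58 (adjusted p = 0.000224). H15, a T-box gene of the heart, was the member that was lower in Tkv, by 0.87 (-0.87 ± 0.22, SE; adjusted p = 0.00628), and without Tkv array A it missed the threshold (-0.68, adjusted p = 0.0512). It was called higher in Arm minus wild type (0.74, adjusted p = 0.0443). The pericardial and muscle identity gene eve did not pass (0.19, adjusted p = 0.541), nor did the T-box gene mid (0.09, adjusted p = 0.957) or zfh1 (-0.30, adjusted p = 0.772). For the LIM-homeobox gene tup, 2 probe sets disagreed, at -0.29 (adjusted p = 0.431) for the brighter and 2.79 (adjusted p = 0.014) for the other.

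Visceral mesoderm genes were split. Of 10 measured members, 4 were called higher and 1 lower in Tkv than in Arm, and 2 and 2 after the length shift. The shares over all probe sets were 11.2% and 8.82%. The homeobox gene bap, which starts the visceral program in dorsal mesoderm, had 8.98, 8.88 and 9.03 in Tkv, 7.56, 7.79 and 7.62 in Arm, and 7.52, 7.55 and 7.39 in wild type. The forkhead gene bin, which acts downstream of bap, had 8.17, 8.09 and 8.18 in Tkv, 6.94, 6.96 and 7.03 in Arm, and 6.27, 6.52 and 6.46 in wild type. For both genes every Tkv array exceeded every Arm and wild type array by more than 1 log2 unit, and Tkv minus Arm was 1.31 ± 0.20 for bap (adjusted p = 6.36e-05) and 1.17 ± 0.23 for bin (SE; adjusted p = 0.000851). The actin covariate gave 0.97 and 1.21 for them, neither past the threshold.

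Alk, the receptor that specifies visceral founder cells, was higher in Tkv by 2.73 (adjusted p = 0.0334). Its Arm levels were spread widely, at 1.29, 3.03 and 4.22, against 5.43, 5.79 and 5.53 in Tkv, and leaving out any 1 of the 3 Tkv arrays, or Arm array A or B, ended the call (1.95 to 2.82). The T-box gene org-1 was higher by 1.12 (adjusted p = 0.0115), or by 0.97 without Arm array A (adjusted p = 0.0516). The visceral genes jeb, mib2, Con, H2.0 and HLH54F did not pass, with differences from -1.24 (jeb) to 0.00 (Con).

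Hand, a bHLH gene of heart, visceral muscle and hemocyte precursors, ran the other way. It had 0.08, -0.34 and 0.70 in Tkv, 4.47, 2.29 and 3.54 in Arm, and 3.91, 0.83 and 2.28 in wild type. Every Tkv array lay below every Arm and wild type array, and Tkv minus Arm was -3.29 ± 0.62 (SE; adjusted p = 0.000548), with -2.20 in Tkv minus wild type (adjusted p = 0.0315) and 1.09 in Arm minus wild type (adjusted p = 0.401). In the whole list of heart and dorsal mesoderm genes, 4 of 14 were called higher in Tkv and 2 lower, beside 11.2% and 8.82% of all probe sets. The called genes are Doc1, Doc3, pnr and ush against Hand and H15.

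Only 10 of 30 listed Wg pathway genes were measured; most Wnt ligand and frizzled receptor genes were not analysed here. Of those 10, 6 were called higher in Tkv than in Arm and none lower, with a median of 0.73; the length shift left 4. The called members included 3 genes whose products mark or remove Armadillo. CkIalpha, a kinase that starts the phosphorylation of Armadillo, had 7.36, 7.27 and 7.29 in Tkv, 5.76, 6.12 and 5.74 in Arm, and 6.64, 6.49 and 6.62 in wild type. The gene slmb, which encodes the F-box protein that binds phosphorylated Armadillo, had 6.64, 6.63 and 6.72 in Tkv, 4.98, 4.82 and 4.78 in Arm, and 6.20, 5.90 and 5.88 in wild type. Both genes had wild type levels between the other groups, with differences in Tkv minus Arm of 1.43 ± 0.12 for CkIalpha (adjusted p = 3.33e-08) and 1.81 ± 0.16 for slmb (SE; adjusted p = 6.41e-08). The scaffold gene Axn was higher by 0.75 (adjusted p = 0.00688), or 0.60 without Tkv array A (adjusted p = 0.0566) and 0.48 after the length shift (adjusted p = 0.0782). A further kinase gene, dco, was higher by 1.21 (adjusted p = 3.73e-09), and it too lay between the groups in wild type, with 0.66 in Tkv minus wild type and -0.55 in Arm minus wild type, both called. The actin signal of the wild type arrays lay between those of the other groups in the same way, and its part in these results was not tested.

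The corepressor gene gro was higher by 0.71 (adjusted p = 0.00102) and by 1.33 at its second probe set. The first lost its call after the length shift (0.31, adjusted p = 0.121). The gene wls, needed for Wg secretion, was higher by 0.85, a call lost without Tkv array A (0.77, adjusted p = 0.0547) or Arm array B (0.72, adjusted p = 0.0655). The ligand gene Wnt6, the feedback genes nkd and Notum and the acyltransferase gene por did not pass, at -1.19, 0.69, -0.15 and 0.23.

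Of 15 measured Wg targets (19 listed), 4 were called lower in Tkv than in Arm and none higher. The 4 were gsb, gsb-n, slou and H15. The list's median was -0.64, and the length shift also gave 0 higher and 4 lower. The listed gene ovo was not called at its brighter probe set (0.29, adjusted p = 0.841), but its other one was higher (2.42, adjusted p = 0.0112). Against wild type, 2 of the 15 were called lower and none higher in Tkv, beside 3.95% and 4.43% of all probe sets. In Arm 1 was called higher, H15, and none lower, beside 2.55% and 4.37%. The Pax gene gsb, a segment polarity gene that Wg signalling sustains, had 3.76, 5.02 and 3.27 in Tkv, 8.18, 8.04 and 8.26 in Arm, and 7.19, 7.0 and 7.23 in wild type. The groups lay far apart, with Arm highest, wild type between and Tkv at the bottom. Tkv minus Arm was -4.14 ± 0.39 (SE; adjusted p = 9.99e-08), a level 17.7-fold higher in Arm. Tkv minus wild type was -3.12 (adjusted p = 2.14e-05), and Arm minus wild type was 1.02 and was not called (adjusted p = 0.139).

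The adjacent paralogue gsb-n had 5.26, 4.18 and 3.99 in Tkv, 6.14, 5.92 and 5.86 in Arm, and 5.52, 5.40 and 5.83 in wild type. The difference was -1.50 ± 0.45 (SE; adjusted p = 0.0221), and leaving out Tkv array B or C, or Arm array A or B, ended the call (-1.52 to -1.25). The homeobox gene slou, which marks a set of somatic muscle founders and depends on Wg, had 2.03, 1.96 and 1.89 in Tkv, 6.53, 5.26 and 6.47 in Arm, and 4.37, 5.34 and 3.04 in wild type. Its difference of -4.13 ± 0.59 (SE; adjusted p = 2.55e-05) came with -2.29 in Tkv minus wild type (adjusted p = 0.0175) and 1.84 in Arm minus wild type (adjusted p = 0.0707). The segment polarity gene en did not pass (0.02 ± 0.31, SE; adjusted p = 0.978). The genes slp2, lbe and lbl differed by -1.63, -0.24 and -0.64 and did not pass; without Tkv array A slp2 passed (-2.28, adjusted p = 0.0472).

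Arrays outside this comparison gave values for the same genes. In Arm+Ras minus Ras, 1.6% of probe sets were called. Actin 3′ minus 5′ signals overlapped in these groups (0.76 to 0.91 against 0.68 to 0.82), but those of the eIF-4a control did not (1.83 to 2.09 in Arm+Ras against 2.24 to 2.28 in Ras), and their part in these values was not tested. There gsb was higher with activated Arm, at 8.19, 8.32 and 8.22 in Arm+Ras against 6.13, 5.50 and 5.72 in Ras (2.46 ± 0.39, SE; adjusted p = 0.00107). The genes gsb-n and slou had 1.18 (adjusted p = 0.266) and 1.24 (adjusted p = 0.44) and were not called. The secreted Wg inhibitor gene Notum was higher there by 3.50 (adjusted p = 0.00638), but it was not called in Arm minus wild type (-0.17, adjusted p = 0.947). In wg loss minus wild type, gsb had -4.27 (adjusted p = 1.86e-08), slou -2.30 (0.00535), gsb-n -1.35 (0.0311) and en -3.13 (7.07e-08), with 26.6% of probe sets called. H15, by contrast, was higher in wg loss by 1.24 (adjusted p = 0.00014), and so was eve, by 0.84 (0.000743). Of the 15 Wg targets, 2 were called higher in wg loss and 5 lower. The wg loss arrays had higher control 3′ minus 5′ signals than wild type (actin 1.38 to 1.39 against 0.88 to 1.00), and their part in these values was not tested. Of the probe sets lower in Tkv than in Arm, 3.49% were higher in Arm+Ras than in Ras and 2.92% lower, beside 0.759% and 0.845% of all tested. Of those higher in Tkv, 1.22% were higher in Arm+Ras and 2.76% lower. Of the probe sets lower in Tkv, 36% were also higher in wg loss than in wild type and 25.1% lower, beside 11% and 15.5% of all tested. Of those higher in Tkv, 18.5% were higher in wg loss and 27.9% lower.

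**Figure D3:**
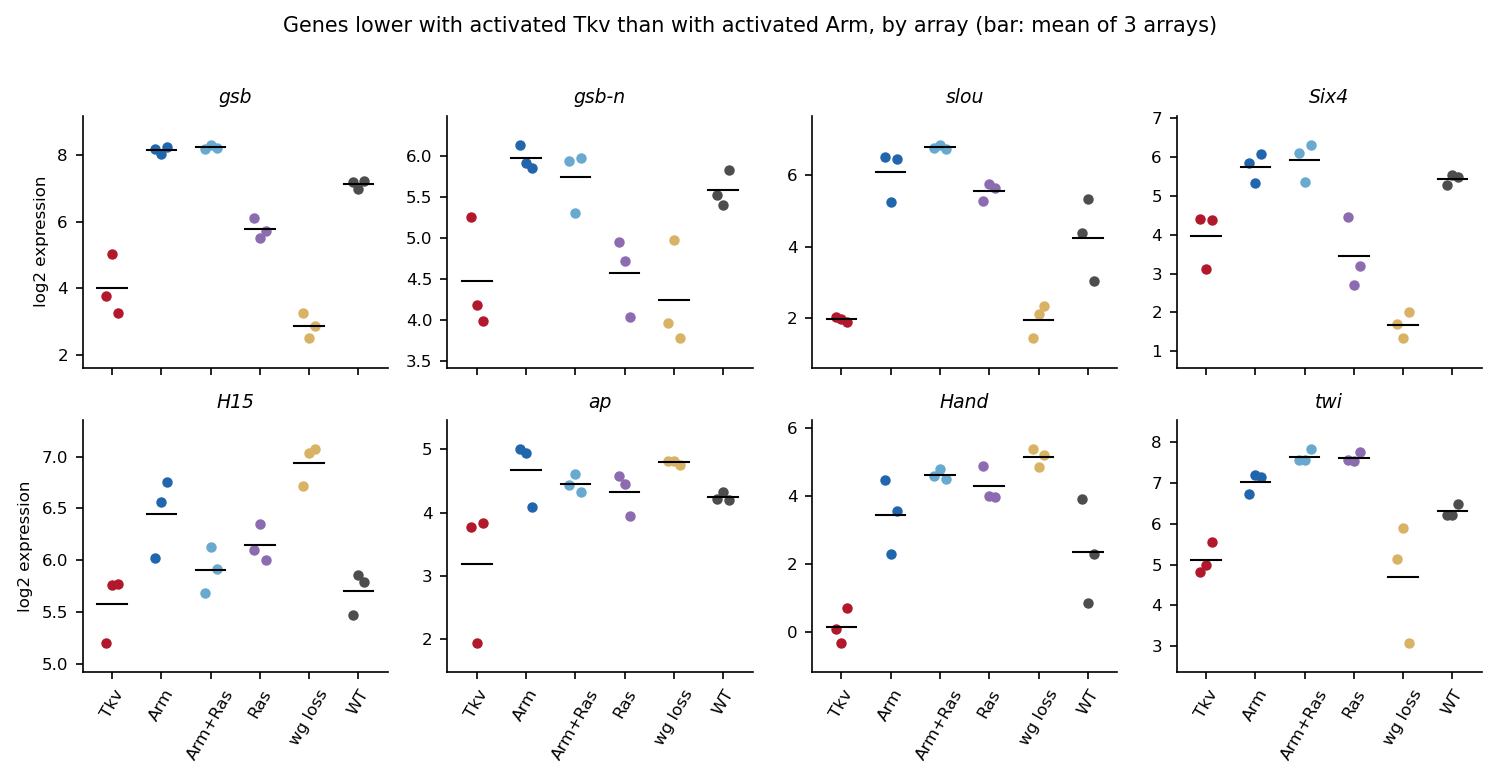
Log2 expression of 8 genes called lower in Tkv than in Arm, in each of the 3 arrays of the Tkv, Arm, Arm+Ras, Ras, wg loss and wild type (WT) groups, each panel on its own scale, with bars at the group means. For gsb the Tkv points (3.27 to 5.02) and the wg loss points (2.49 to 3.26) lie below the Arm points (8.04 to 8.26); Hand and H15 are high in wg loss.

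Muscle identity genes went both ways. Of 23 measured founder cell and identity genes, 3 were called higher in Tkv and 4 lower, and the length shift left 0 and 4. Over all probe sets 11.2% were called higher and 8.82% lower, so the higher count was near the share of all. Besides slou, the lower ones were Six4, ap and Ndg. The homeobox gene Six4, needed in lateral and ventral mesoderm, had 4.41, 3.11 and 4.39 in Tkv, 5.86, 5.33 and 6.07 in Arm, and 5.28, 5.53 and 5.49 in wild type. The difference was -1.78 (adjusted p = 0.0382), and leaving out any array but Tkv A ended the call (-1.99 to -1.35). In Arm+Ras minus Ras it was 2.48 (adjusted p = 0.035), and in wg loss minus wild type -3.75 (adjusted p = 4.11e-05). The LIM-homeobox gene ap, of lateral muscle founders, was lower by -1.51 (adjusted p = 0.00832), which was -0.88 without Tkv array B (adjusted p = 0.0582). Ndg, which encodes the basement membrane protein nidogen, was lower at -0.90 (adjusted p = 0.00754).

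The higher identity genes were org-1, above, Kr and kn. The zinc finger gene Kr had 4.82, 3.97 and 4.90 in Tkv and 2.50, 2.57 and 2.51 in Arm (2.03, adjusted p = 0.0257), but the call was lost without any 1 of Tkv arrays A and C and the 3 Arm arrays (1.87 to 2.06). The transcription factor gene kn was higher by 0.91 (adjusted p = 0.0323), lost without Tkv array A or C or Arm array B or C (0.77 to 0.88). The founder genes kirre, rols, nau, eve, lms, Poxm, caup, ara and others, 16 in all, did not pass.

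Genes of fusion-competent myoblasts, the cells that fuse with founders, were called higher for 4 of 6 measured and lower for none, with a median of 0.83 and 3 calls after the length shift. Their regulator lmd had 8.98, 8.97 and 8.87 in Tkv, 7.72, 7.86 and 7.75 in Arm, and 8.18, 8.14 and 8.22 in wild type. Wild type thus lay between the groups, and Tkv minus Arm was 1.16 ± 0.26 (SE; adjusted p = 0.0022). The adhesion gene hbs had 6.76, 6.40 and 6.66 in Tkv and 5.15, 2.68 and 5.09 in Arm; its difference of 2.30 was 1.49 without Arm array B, still called. The fusion gene blow was higher by 0.50 (adjusted p = 0.000853) and the actin regulator gene Vrp1 by 2.67 (adjusted p = 0.00576). The adhesion gene sns (0.10, adjusted p = 0.784) and the fusion gene sing (-0.25, adjusted p = 0.639) did not pass.

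Among early mesoderm genes, twi was lower in Tkv than in Arm, at 4.82, 4.99 and 5.56 against 6.74, 7.19 and 7.15, with 6.22, 6.22 and 6.50 in wild type. The twi promoter drives GAL4 in every group. The difference of -1.91 ± 0.55 (SE; adjusted p = 0.0161) missed the threshold without Tkv array A (-1.75, adjusted p = 0.0647) or Arm array B (-1.83, adjusted p = 0.0547). The repressor gene sna was higher by 0.51 (adjusted p = 0.000307). The other measured members, Him, htl, zfh1, mib2, eya and if, did not pass, while bap is given above. In the wild type gate, GFP positive minus GFP negative, 5 of these 9 genes were higher and 1 lower, and 6 of 12 ectoderm genes were lower, beside 8.18% higher and 6.67% lower over all probe sets.

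**Figure D4:**
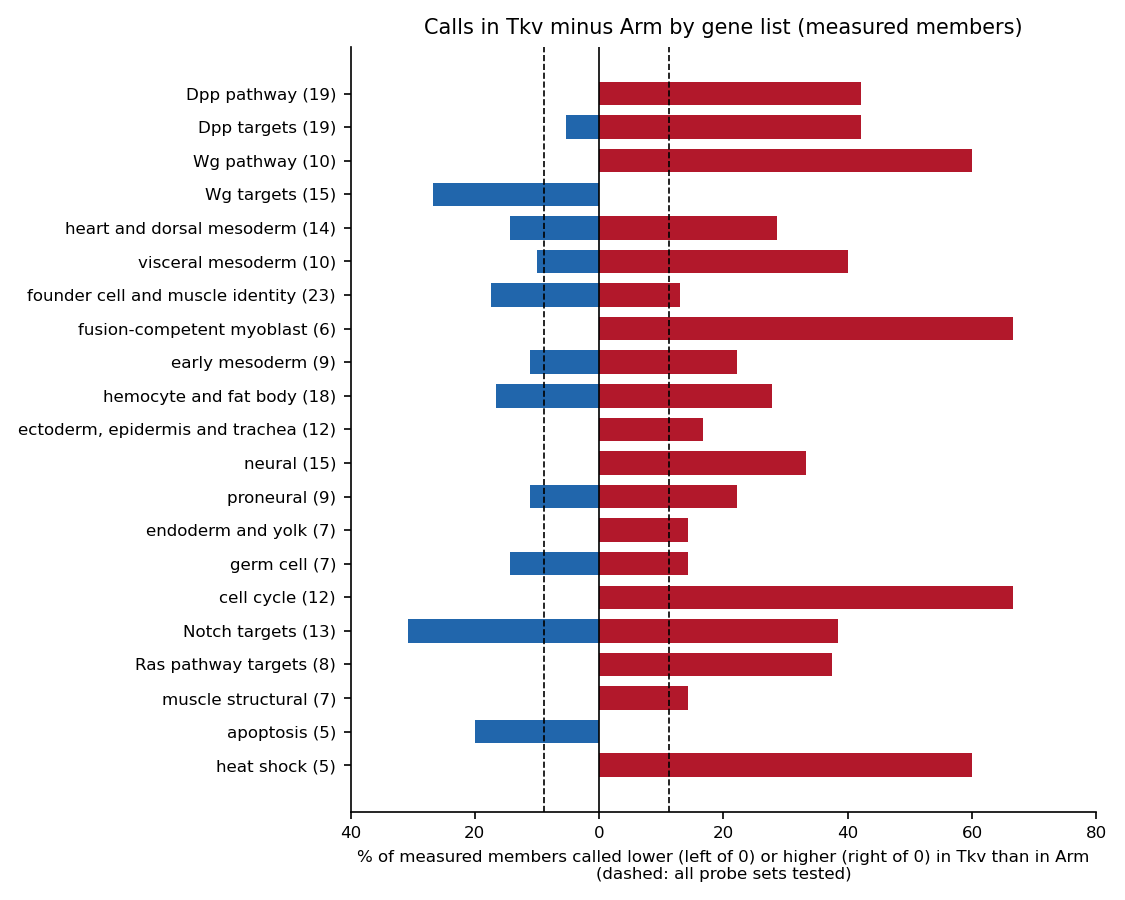
Percentage of the measured members of each gene list (number in parentheses) called higher (red, right of 0) or lower (blue, left of 0) in Tkv than in Arm; dashed lines mark 11.2% higher and 8.82% lower over all probe sets. The lists overlap, and Wg targets and apoptosis are the lists with lower calls alone.

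Hemocyte and fat body genes split, with 5 of 18 measured called higher in Tkv and 3 lower, beside 11.2% and 8.82% of all probe sets. The counts were the same after the length shift. NimC4, a phagocytic receptor gene of embryonic hemocytes, had 10.34, 10.40 and 10.46 in Tkv, 11.36, 11.30 and 11.37 in Arm, and 10.55, 10.51 and 10.58 in wild type. Tkv lay close to wild type and Arm above both, with Tkv minus Arm at -0.94 ± 0.05 (SE; adjusted p = 5.85e-11) and Arm minus wild type at 0.79 (adjusted p = 3.45e-09). It was one of the 3 genes still called with the actin covariate (-0.95, adjusted p = 0.0182), and it was higher by 0.35 in Arm+Ras minus Ras (adjusted p = 0.000374). Ppn, a matrix protein gene of hemocytes, had 10.55, 10.05 and 10.48 in Tkv, 8.89, 8.32 and 8.97 in Arm, and 8.46, 8.19 and 8.31 in wild type. Here Tkv stood above both, by 1.63 over Arm (adjusted p = 4.62e-05) and 2.04 over wild type (adjusted p = 1.67e-05). The second Ppn probe set was not called in Tkv minus Arm (0.28, adjusted p = 0.688), and the mean of both gave 0.95. The list also holds ush, given above, and the glial and hemocyte regulator gcm was higher by 0.61 (adjusted p = 0.000961). The summed log2 level of the 18 genes was 108.9 to 115.0 in Tkv, 105.1 to 111.5 in Arm and 98.7 to 103.7 in wild type.

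Neural genes were called higher in Tkv for 5 of 15 and lower for none (4 after the length shift), beside 11.2% and 8.82% of all probe sets. The neurotactin gene Nrt had 9.98, 9.80 and 9.95 in Tkv, 9.11, 8.96 and 9.03 in Arm, and 9.93, 9.65 and 9.70 in wild type. Tkv and wild type overlapped and Arm lay below, with Tkv minus Arm at 0.88 (adjusted p = 2.5e-07) and Arm minus wild type at -0.73 (adjusted p = 1.4e-05). Its second probe set was not called in Tkv minus Arm (0.37, adjusted p = 0.601). The neuroblast gene wor gave 1.02 (adjusted p = 0.00258) and -1.49 (adjusted p = 0.000195) in these 2 comparisons. The neural gene nerfin-1 was higher by 1.35 and, at its second probe set, by 1.64 (adjusted p = 0.00672), though the first missed the threshold without Arm array B (0.84, adjusted p = 0.0986). The call of ase (1.73) was lost without Arm array C (1.01, adjusted p = 0.0873). In Arm minus wild type 6 of the 15 were called lower, beside 4.37% of all probe sets. In Tkv minus wild type the smallest adjusted p of the 15 was 0.0999, for the glial gene Gli (-0.53). The summed log2 level of the list was 82.3 to 84.2 in Tkv, 72.5 to 73.7 in Arm and 82.6 to 87.7 in wild type. For the 12 ectoderm genes, of which ed (0.79, or 1.58 as the mean of its probe sets) and Nrg (0.83) were called higher, it was 56.4 to 58.6 in Tkv, 48.7 to 52.7 in Arm and 55.7 to 58.8 in wild type. For the 9 early mesoderm genes the summed level was 58.8 to 59.4 in Tkv, 58.7 to 59.5 in Arm and 57.2 to 57.5 in wild type. A part of nonmesodermal cells in these differences was not tested.

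Cell cycle genes were called higher in Tkv for 8 of 12 and lower for none, beside 11.2% and 8.82% of all probe sets. After the length shift 9 were called higher. CycB3, a mitotic cyclin gene, had 9.54, 9.10 and 9.42 in Tkv, 8.04, 7.88 and 7.74 in Arm, and 9.03, 8.90 and 8.98 in wild type. It was higher in Tkv than in Arm by 1.47 ± 0.10 (SE; adjusted p = 1.36e-09), with 0.38 in Tkv minus wild type and -1.08 in Arm minus wild type. CycB, Mcm5 and CycD, of mitosis, DNA replication licensing and the G1 phase, were higher by 0.93, 1.17 and 1.29. Against wild type, 2 of the 12 were called higher and 1 lower in Tkv, beside 4.43% and 3.95% of all probe sets. In Arm 7 were called lower and none higher, beside 4.37% and 2.55%.

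Notch target genes were called in both directions, 5 of 13 higher in Tkv and 4 lower, beside 11.2% and 8.82% of all probe sets. The length shift gave 7 and 2. The median length of these genes is 978 bases, within the bin of shortest genes. E(spl)m4-BFM, a Bearded-family gene, had 9.55, 9.66 and 9.63 in Tkv, 8.04, 7.42 and 7.99 in Arm, and 8.77, 9.03 and 9.06 in wild type. The groups did not overlap and wild type lay between. Tkv minus Arm was 1.80 ± 0.12 (SE; adjusted p = 8.29e-10), it was 1.89 with the actin covariate (adjusted p = 0.0404), and in Arm+Ras minus Ras the gene was lower by -0.79 (adjusted p = 0.000581). The bHLH repressor gene hry was higher in Tkv by 2.29 (adjusted p = 4.7e-08) and the Bearded-family gene Brd by 1.21 (adjusted p = 3.95e-08). The bHLH gene E(spl)m7-HLH was higher by 0.72 (adjusted p = 1.67e-06). Among the 4 lower genes were E(spl)m3-HLH and E(spl)m2-BFM, at -0.84 and -0.80, named after their values were seen.

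The other lists were small. Ras pathway targets had 3 of 8 higher and none lower, led by the ETS repressor gene aop (1.28, adjusted p = 8.3e-07). In that list Mkp3 was not called (-0.59, adjusted p = 0.103), but its second probe set was higher (2.57, adjusted p = 0.0108). Of 5 heat shock genes 3 were higher, led by DnaJ-1 (0.61), and of 7 muscle structural genes the actin gene Act87E was higher (0.97). The probe sets of the muscle gene sls disagreed. Its brightest was not called (-1.13, adjusted p = 0.219), another was higher (3.17, adjusted p = 0.00626), and the others had -1.29 and -1.78, not called. The germ cell list had 1 gene of 7 called each way, the apoptosis list 1 of 5 lower, and the proneural list 2 of 9 higher and 1 lower. The endoderm and yolk list had 1 of 7 higher, the GATA gene srp (1.19). Over all probe sets 11.2% were called higher and 8.82% lower. These lists are small and were not tested as sets, so no conclusion is drawn from their counts.

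**Figure D5:**
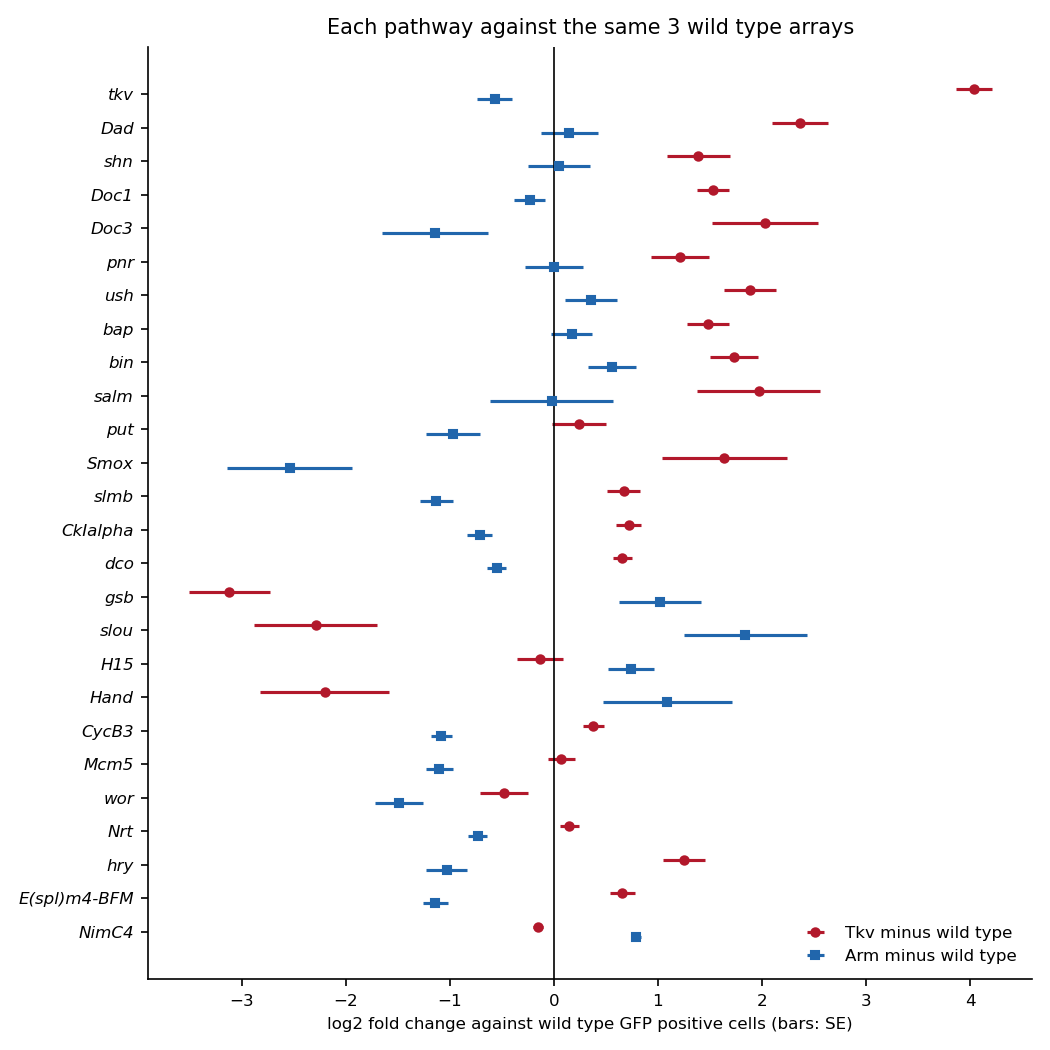
Log2 fold change of 26 genes in Tkv (red circles) and in Arm (blue squares) against the same 3 wild type GFP positive arrays, with bars for the SE. Dad, Doc1, pnr, ush, bap and bin depart from wild type in Tkv, and Mcm5, wor and Nrt depart in Arm. CycB3 lies above wild type in Tkv and further below it in Arm. The genes gsb and slou lie below wild type in Tkv, at -3.12 and -2.29.

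Of the 102 called genes, 44 were also called in Tkv minus wild type, 38 in Arm minus wild type, 12 in both and 32 in neither. These comparisons reuse the Tkv and Arm arrays, and over all probe sets 8.38% and 6.92% were called. The wild type mean lay between the Tkv and Arm means for 74 of the 102. The genes were chosen for their difference between Tkv and Arm, which favours a wild type mean in between, so no conclusion is drawn from that count.

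The 12 largest rises and 12 largest falls among called genes were mostly of low level: in 11 of the 12 rises the Arm mean, and in all 12 falls the Tkv mean, lay below the median level of the arrays. The rises, each at least 3.69, were tkv, pxb, Smox, Cap-H2, CG10376, lncRNA:CR42862, Tsp, CG8034, Uhg1, inc, RhoGAP19D and Spindly. Other probe sets were lower in size for Cap-H2 (0.44, adjusted p = 0.151), Tsp (1.15, adjusted p = 0.159) and inc (0.30 and 1.34, adjusted p = 0.779 and 7.73e-08), and means over the probe sets gave 2.29, 2.58 and 1.80 for these genes. Of these, 4 were called higher in Tkv than in wild type, tkv, pxb, CG10376 and Uhg1, and 5 were called lower in Arm. The transmembrane protein gene pxb had 6.56, 6.28 and 6.70 in Tkv, 1.61, 2.31 and 2.55 in Arm, and 4.74, 3.80 and 4.52 in wild type, a 20.5-fold difference between Tkv and Arm (4.36 ± 0.62, SE; adjusted p = 2.18e-05). Uhg1, a small nucleolar RNA host gene, had 5.37, 5.32 and 5.75 in Tkv, 0.42, 3.11 and 1.35 in Arm, and 0.85, 0.40 and 0.90 in wild type. It was higher in Tkv by 3.85 over Arm (adjusted p = 0.000106) and 4.77 over wild type (adjusted p = 3.95e-05). RhoGAP19D lost its call without Arm array B (3.08, adjusted p = 0.0565).

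The largest falls, each at least 2.83 in size, were Ir64a, gsb, slou, CG13794, Hand, Coq8, CG15262, CG13716, CG12880, t-Grip91, amd and CG15345. Of these, 7 were called lower in Tkv than in wild type and 3 higher in Arm: Ir64a, CG13794 and t-Grip91. Ir64a, an ionotropic receptor gene known from olfactory neurons, had 2.22, 3.58 and 2.26 in Tkv, 6.99, 7.36 and 7.24 in Arm, and 0.90, 1.21 and 1.23 in wild type. Arm stood above every other group, with Tkv minus Arm at -4.51 ± 0.51 (SE; adjusted p = 1.25e-06) and Arm minus wild type at 6.08 (adjusted p = 1.65e-07). In Arm+Ras, which carried the same kind of Arm transgene, Ir64a had 1.06, 0.94 and 0.82, against 1.85, 1.45 and 1.26 in Ras. CG13794 had 3.21, 3.71 and 2.13 in Tkv, 7.07, 6.56 and 7.07 in Arm, and 3.23, 3.71 and 1.05 in wild type, and 0.32 in Arm+Ras minus Ras (adjusted p = 0.933). Leaving out Tkv array B ended the call of CG13716 (-2.34, adjusted p = 0.0519), and leaving out Tkv array A that of CG12880 (-2.01, adjusted p = 0.0917). The catecholamine-pathway gene amd was lower in Tkv, at 3.71, 2.38 and 2.47 against 5.66, 5.53 and 6.16 in Arm, and was not called at its second probe set (-0.33, adjusted p = 0.324); the mean of both was -1.63.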

How the data were processed

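RNA of sorted embryonic cells was measured on Affymetrix DrosGenome1 arrays. The authors deposited 1 log2 expression value per array and probe set, made with affy, per the submitters' processing notes; the background correction, normalization and summary are not given in the sources used here, and the log base was inferred from the values. Sets were normalized separately, so values were compared only within the second set (24 arrays in 8 groups). Of 14010 probe sets, the 44 controls were dropped, and no filter on low values was applied. Differences were fitted with limma 3.58.1 in R 4.3.3 (lmFit with 1 mean per group over the 24 arrays, eBayes with a variance trend, Benjamini-Hochberg adjustment over 13966 probe sets, threshold 0.05). The number of arrays limits the precision. Of the probe sets tested, 12443 had 1 gene symbol, 327 several and 1196 none, in GEO's platform annotation updated through RefSeq.

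Where several probe sets measure a gene, the brightest on average across all arrays stands for it. Genes were named by these rules: tkv; the 12 largest rises and falls among called genes without overlap of the groups; every called member of the pathway, target, heart, visceral, founder and fusion-competent lists; uncalled pathway members with values; and up to 4 members of other lists with the smallest p. A few further uncalled members are named with their values. The gene lists and the genes compared were chosen with earlier results of these data known. Gene length, 88.8% matched, is the genomic span in RefSeq. Alternatives covered the variance trend, the groups fitted, the replicate letter, quantile normalization, centring, dim probe sets, single arrays, probe set averaging and RNA quality; the shift within 20 bins of gene length and the choice of actin as covariate were added after seeing the data. The fit was tested on simulated data. Replicate letters were not used to pair the arrays in the main fit. Some genes, wg and arm among them, were not analysed here, and no promoter sequences were used.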

Additional observations from a re-analysis of the deposited data

How the results depend on the processing

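The 2792 calls of Tkv minus Arm became 2976 with the letter as a replicate block. Deviations from the group means correlated at 0.006, 0.034 and 0.04 for same-letter Tkv and Arm arrays, and at -0.063 to 0.04 over all 9 pairs. The labelling spikes were low on every B array. The main fit did not use the letters, and whether they pair the arrays was not tested further. Leaving out 1 array gave 2141 to 2751 calls. Control signals as covariates moved the count most: 29 (21 higher, 8 lower) with actin and 1665 (900 higher, 765 lower) with GAPDH. These signals separate the groups, so genotype and control signal cannot be told apart in these counts. Centring on medians put 50% of calls higher, against 55.9%. Other settings gave 1961 to 2879. Tkv minus wild type (1170) had 706 to 1197 calls with 1 array left out. Arm minus wild type (966) had 639 to 1042, and 408 when only its groups were fitted. Arm+Ras minus Ras (224) had 119 to 159, and 95 without the variance trend. With the actin covariate the sign turned for babo (-0.13), Ance (-0.27), Kr (-0.71), ase (-0.30) and RhoGAP19D (-2.63), and inc came to 0, none of them called; the length shift turned E(spl)malpha-BFM (0.10), and averaging probe sets turned drpr (0.12) and tup (1.25). The causes were not tested. The promoter motif count was not run. Dim probe sets, near 0 on the log2 scale, limit the folds of the largest changes.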

Other observations

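Gene families picked by symbol after their values were seen also differed between the groups. Of 64 mitochondrial ribosomal protein probe sets, 1 was called higher in Tkv than in Arm and 46 lower, with a median difference of -0.61 and a median gene length of 909.5 bases. The shift within bins of gene length left 2 higher and 24 lower, with a median of -0.24. Of 60 probe sets of the respiratory chain and ATP synthase, 1 was higher and 35 lower (median -0.48), and 3 and 19 after the shift. Cytoplasmic ribosomal protein genes, also short, had 4 of 37 higher and 14 lower before the shift and 15 higher and 3 lower after it. Proteasome genes had 5 of 40 higher and 8 lower, and 9 and 2 after the shift.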
